A study of Mus musculus with 13 samples.

Results

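Fatty acid oxidation and ketogenesis were followed through 36 genes listed by name, from the proteins that take up and activate fatty acids to the enzymes of the oxidation spiral, the electron carriers that serve it, an enzyme of ketone body metabolism and the regulators of the pathway. The list was drawn up by function, with earlier results of these data known. Of the 36 genes, 34 had a transcript cluster that names that gene alone, among 19938 genes measured. Acsl1 and Acsl3 were not analysed here. RNA came from mouse rectum and was measured on 13 Affymetrix Mouse Gene 1.0 ST arrays, in 3 groups. The 5 adenocarcinomas came from rectal prolapses of α6fl/fl Villin-Cre mice aged 53, 60, 60, 64 and 80 weeks, of which the youngest and the oldest were female and the other 3 male. The 4 samples of inflamed mucosa lay next to tumours in such prolapses, at 53 weeks (female) and 60, 60 and 64 weeks (male). The 4 samples of normal mucosa came from control mice of 53 and 70 weeks (female) and 60 and 64 weeks (male). In α6fl/fl Villin-Cre mice, Cre driven by the Villin promoter removes integrin α6 from the intestinal epithelium, so other cells of the rectum keep the gene. The labels are split on the normal samples: the genotype entry is this same one for all 13 samples, but the source entry has them as controls. Tumour and inflamed mucosa were dissected from frozen sections and normal mucosa was scraped, so the way of collecting and the group cannot be told apart in any comparison with normal mucosa. The labels do not say whether arrays of the same number came from the same mouse, and p-values measure the spread between these samples.

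Long-chain fatty acids enter cells with the help of CD36, travel on binding proteins and are joined to coenzyme A by acyl-CoA synthetases. The carnitine shuttle carries them into mitochondria, where repeated rounds of dehydrogenation, hydration, a second dehydrogenation and thiolytic cleavage release acetyl-CoA and feed electrons to the respiratory chain, in part through the electron transfer flavoprotein. Very long chains are shortened first in peroxisomes. Ketogenesis turns acetyl-CoA into acetoacetate and β-hydroxybutyrate. PPARα and the coactivator PGC-1α, encoded by Ppargc1a, drive transcription of many of these genes, and PDK4 holds back glucose oxidation when fatty acids are burned. In the colon, mature absorptive cells are known for oxidising butyrate, a short-chain fatty acid made by bacteria, as their main fuel.

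Values are log2 expression levels of the authors, and a gene was called when limma's test over all 19938 genes gave a Benjamini-Hochberg adjusted p below 0.05. Genes that cannot be transcribed in a sample set the lower end of the scale. Genes of the Y chromosome on female arrays lay between 3.60 and 5.57, and Xist on male arrays between 4.75 and 5.37, so a level at or under 5.57 was read as that of an absent transcript. Of the 34 members, Fabp1 lay under it on all 13 arrays, Cd36 was above it on 8 and Pdk4 on 5. All others but these 3 were above it on every array. Levels of different genes come from different probes and, this cut-off apart, are not compared with each other. The cut-off rests on a few other genes, so readings against it are approximate. The rectal samples carried the markers of their tissue: a list of 8 epithelial genes averaged 12.10 ± 0.02 in adenocarcinoma (SD, n = 5), 11.92 ± 0.06 in inflamed mucosa and 12.16 ± 0.05 in normal mucosa (SD, n = 4 each).

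Promoters are shown for members on which results below turn, each at the first start listed, from RefSeq sequence of assembly GRCm38.p6, 5′ to 3′ on the gene's strand and ending at the base before the transcript start. Slc25a20 and Ppargc1a had the lowest differences of the members in adenocarcinoma against normal mucosa, Hadhb shares its upstream region with a partner gene, and Fabp1 holds the only full PPAR-type motif found among the members.
Slc25a20, chr9:108661886-108662135, + strand: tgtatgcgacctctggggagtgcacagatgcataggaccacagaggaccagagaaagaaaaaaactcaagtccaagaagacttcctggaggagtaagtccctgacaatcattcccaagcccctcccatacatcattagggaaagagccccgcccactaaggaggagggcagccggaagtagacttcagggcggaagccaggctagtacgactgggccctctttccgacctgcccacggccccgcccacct
Ppargc1a, chr5:51567726-51567975, - strand: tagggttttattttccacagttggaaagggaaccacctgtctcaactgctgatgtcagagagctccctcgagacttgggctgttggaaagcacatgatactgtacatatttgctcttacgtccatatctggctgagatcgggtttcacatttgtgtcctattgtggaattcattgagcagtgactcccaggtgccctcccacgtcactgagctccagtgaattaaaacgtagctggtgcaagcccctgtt
Hadhb, chr5:30155003-30155252, + strand: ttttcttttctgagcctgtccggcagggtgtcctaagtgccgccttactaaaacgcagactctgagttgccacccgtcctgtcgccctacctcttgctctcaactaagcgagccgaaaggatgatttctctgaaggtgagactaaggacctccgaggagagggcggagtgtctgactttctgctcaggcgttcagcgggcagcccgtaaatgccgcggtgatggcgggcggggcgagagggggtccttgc
Fabp1, chr6:71199629-71199878, + strand: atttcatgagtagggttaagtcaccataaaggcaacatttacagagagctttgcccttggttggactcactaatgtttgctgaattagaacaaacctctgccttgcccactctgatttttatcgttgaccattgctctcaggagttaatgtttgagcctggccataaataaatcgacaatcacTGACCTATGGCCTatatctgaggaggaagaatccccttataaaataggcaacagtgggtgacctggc
Capitals in the Fabp1 sequence mark a direct repeat with a spacer of 1 base (DR1), the arrangement that PPAR and RXR dimers are known to bind, read on the opposite strand. The Hadhb stretch lies wholly between 2 genes that run away from each other, since Hadha and Hadhb start 272 bases apart. These genes encode the α and β subunits of the mitochondrial trifunctional protein.

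Promoter windows of 300 bases (250 before the start and 50 after it) were matched for 32 of the 36 members and searched on both strands. AGGNCANAGGNCA, the DR1 motif, was found in 1 of the 32 members, Fabp1, and in 0.451% of the 27025 genes that have such a window. The hexamer AGGTCA, which forms part of a DR1, was found in 7 of 32 members (18.1% of all genes): Acadm, Acadvl, Cd36, Cpt1a, Echs1, Fabp1 and Pparg. CAAAGTCCA (HNF4), TCAAGGTCA (the oestrogen-related receptors) and TGACGTCA (CREB) were found in 0 members and in 0.555%, 0.466% and 2.03% of all genes. These matches describe letters in a short window and say nothing about binding.

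In adenocarcinoma against normal mucosa the members moved in both directions. Of 34 members, 13 were called, 4 higher and 9 lower, and 21 were not called. That share, 38.2%, was close to the 35.8% of all genes called in this comparison, of which 16.4% were higher and 19.4% lower. The median difference over the members was -0.07 on the log2 scale, beside -0.10 over all genes. The members that fell were Ppargc1a, Slc25a20, Ehhadh, Ppara, Acadm, Etfa, Cpt2, Hadhb and Fabp1, and those that rose were Acsl4, Acsl5, Acat1 and Hsd17b4. Fabp1 counts among them although it lay under the level of absent transcripts on every array. The arrays of the 2 groups did not overlap for 11 members, or 32.4%, against 26.9% of all genes.

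Against normal mucosa, inflamed mucosa had 12 members called, 6 higher and 6 lower, and 22 were not. This was 35.3% of the members, beside 26.7% of all genes (2730 genes, or 13.7%, higher and 2592 lower). Cd36, Pdk4, Acsl4, Fabp2, Acsl5 and Acat1 rose, and Ppargc1a, Slc25a20, Ehhadh, Cpt2, Acadvl and Fabp1 fell, the last again with all values under the level of absent transcripts. The median over the members was -0.08, beside -0.09 over all genes. Groups did not overlap for 9 members (26.5%), and for 27.6% of all genes.

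In adenocarcinoma against inflamed mucosa 5 members were called, or 14.7%, beside 7.12% of all genes, 2.91% higher and 4.21% lower. Acadl rose, and Cd36, Pdk4, Ppargc1a and Ppara fell. The median difference was -0.10 for the members and -0.01 for all genes. Groups did not overlap for 5 members (14.7%), and for 11.8% of all genes. With same-numbered arrays as a random block the calls over all genes grew to 938 higher and 1341 lower, beside 581 and 839, and the members' counts did not change. The comparisons share arrays, so their values are given side by side and not as independent results.

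**Figure D1:**
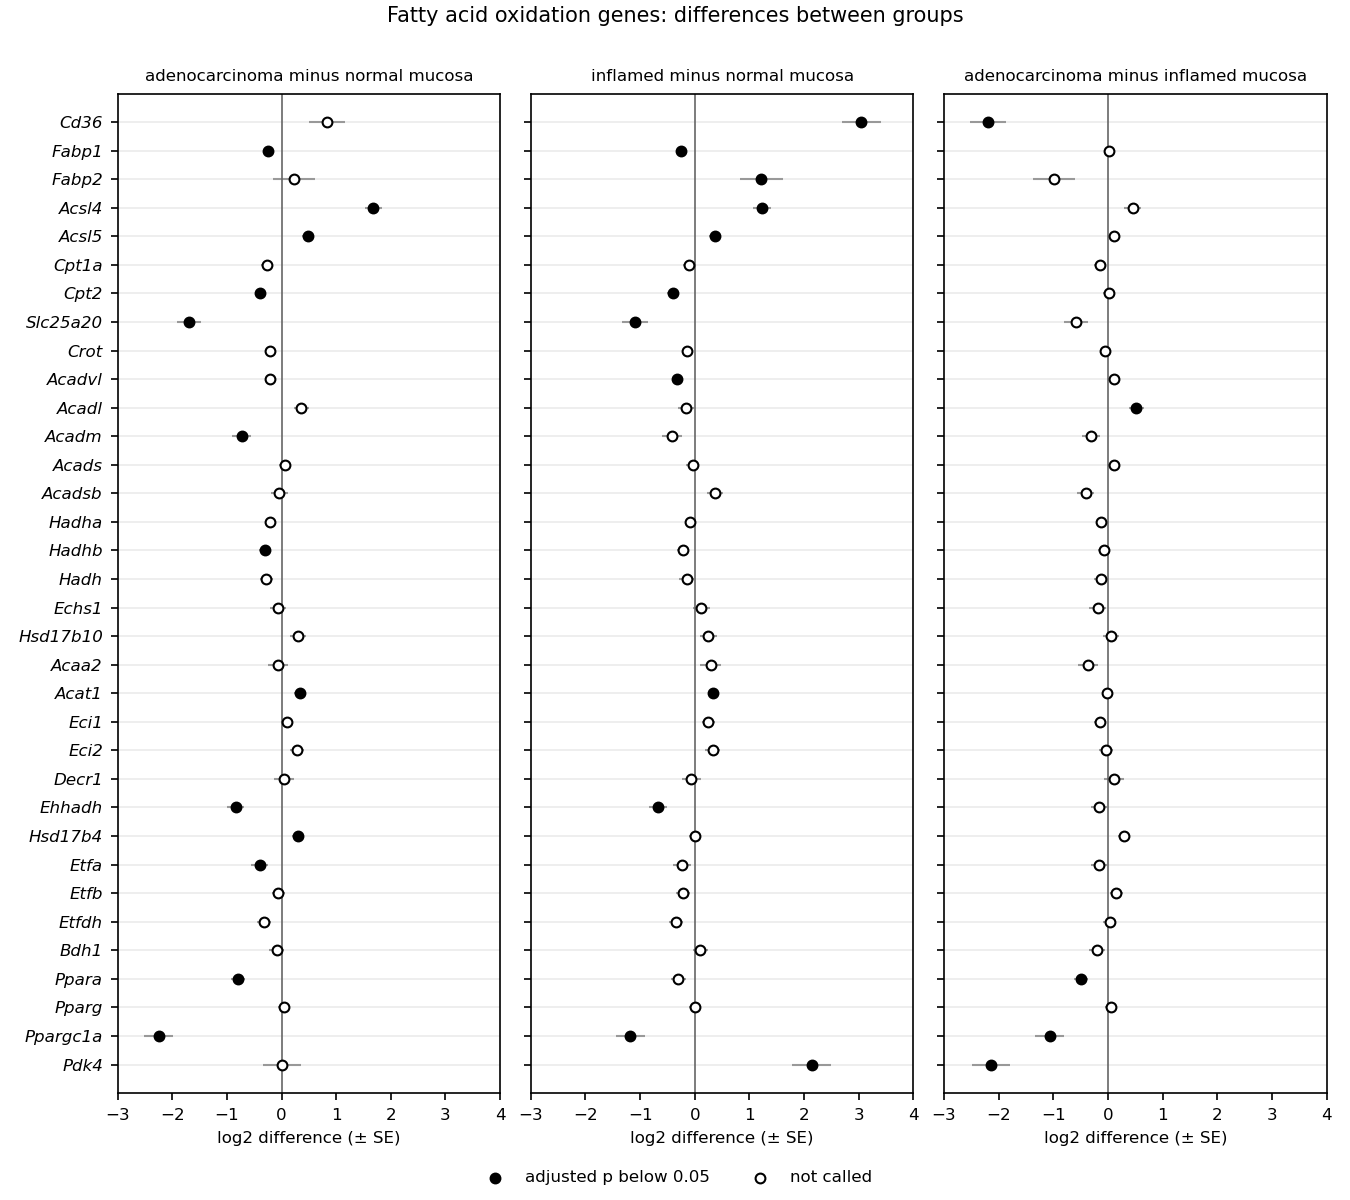
Log2 differences (horizontal axis, ± SE) of the 34 measured members, 1 row each, in adenocarcinoma minus normal mucosa, inflamed minus normal mucosa and adenocarcinoma minus inflamed mucosa. Filled points were called at an adjusted p below 0.05. Most points lie close to 0, and the farthest are Ppargc1a at -2.25 (adenocarcinoma minus normal mucosa) and Cd36 at 3.05 (inflamed minus normal mucosa).

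Of the uptake and binding genes, Cd36 and Fabp2 had their highest means in inflamed mucosa. Cd36, a fatty acid translocase of the plasma membrane, read 5.55, 6.09, 5.91, 5.90 and 5.49 in adenocarcinomas 1, 2, 3, 4 and 6, and 8.38, 8.89, 7.23 and 7.46 in inflamed mucosa 1 to 4, against 5.28, 4.50, 4.35 and 5.65 in normal mucosa 1, 2, 4 and 6. Every inflamed array lay above every other array, and 3 of 4 normal arrays and 2 of 5 adenocarcinomas were at or under the level of absent transcripts. The difference was 3.05 in inflamed against normal mucosa (SE 0.35, adjusted p = 3.65e-05) and -2.20 in adenocarcinoma against inflamed mucosa (SE 0.33, adjusted p = 0.00145). With arrays under 5.57 set to it, inflamed mucosa was at least 5.28-fold above normal mucosa and at least 4.54-fold above adenocarcinoma. In adenocarcinoma against normal mucosa Cd36 differed by 0.84 and missed the threshold (adjusted p = 0.0618). It passed there without inflamed mucosa 2, without inflamed mucosa 3 or without normal mucosa 6, at adjusted p between 0.0258 and 0.047, and in the fit of these 2 groups alone (0.0298) or with array weights (0.0475).

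Cd36 is also known from endothelium, macrophages, adipocytes and muscle, so markers of these cells were set beside it. The mean level of 6 endothelial markers ranged over 8.26 to 8.69 in adenocarcinoma and 7.98 to 8.62 in inflamed mucosa, against 5.67 to 6.40 in normal mucosa, and 6 of 6 rose against normal mucosa in both. The 6 macrophage markers averaged 7.64 to 8.29 in adenocarcinoma and 8.29 to 8.94 in inflamed mucosa, against 6.18 to 7.27 in normal mucosa. The 7 smooth muscle markers averaged 8.94 to 9.27 in adenocarcinoma and 10.69 to 11.64 in inflamed mucosa, against 6.57 to 8.29 in normal mucosa, with normal mucosa 6 the highest of its group. Smooth muscle and macrophage markers thus both had the same order of group means as Cd36, and their part in its difference was not tested. The 6 skeletal muscle markers averaged 6.21 to 6.43 in adenocarcinoma and 6.45 to 6.52 in inflamed mucosa, against 6.53 to 7.04 in normal mucosa. One of them, Ckm, moved with Cd36, at 0.66 in inflamed against normal mucosa (adjusted p = 0.00555) and -0.93 in adenocarcinoma against inflamed mucosa (adjusted p = 0.00147), while Mylpf, Tnnt3 and Myh4 fell in inflamed against normal mucosa. Mylpf averaged under the level of absent transcripts in all 3 groups. Myh4 averaged under it in adenocarcinoma (5.34) and inflamed mucosa (5.35), and just above it in normal mucosa (5.65). Of 5 adipocyte markers 0 were called by limma in each comparison (at an unadjusted p below 0.05, 1: Lep in adenocarcinoma against normal mucosa), and Adipoq and Lep averaged 4.41 and 4.59 in adenocarcinoma, 4.44 and 4.72 in inflamed mucosa, and 4.59 and 4.91 in normal mucosa, under the level of absent transcripts. In these bulk samples fewer cells of a type and less RNA per cell cannot be told apart.

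Fabp2, the intestinal fatty acid binding protein, read 7.81, 8.71, 8.11, 7.25 and 6.81 in adenocarcinoma and 8.69, 8.56, 8.66 and 9.0 in inflamed mucosa, against 8.48, 6.5, 7.65 and 7.39 in normal mucosa. Inflamed arrays were tightly grouped (SD 0.19) while adenocarcinoma and normal arrays spread widely (SD 0.74 and 0.82). The rise of 1.22 in inflamed against normal mucosa (SE 0.40, adjusted p = 0.0378) was lost when any of 7 arrays was left out (each of the 4 inflamed arrays, or normal mucosa 2, 4 or 6), with adjusted p of 0.053 to 0.122 and differences of 0.88 to 1.28. With adenocarcinoma and inflamed arrays of the same number as a random block it also missed (adjusted p = 0.0532), as it did with a fixed block, sex as a covariate, cyclic loess, a trended robust variance or array weights (0.051 to 0.117). Fabp1, the liver-type binding protein, whose promoter with the DR1 is shown above, read 3.59 to 3.82 in adenocarcinoma and 3.66 to 3.76 in inflamed mucosa, against 3.79 to 4.20 in normal mucosa. All of these values lie under the level of absent transcripts, so the calls at -0.24 in adenocarcinoma and -0.26 in inflamed mucosa compare values in the range of absent transcripts. When 1 array was left out, the first call was kept only without adenocarcinoma 1 or normal mucosa 6 (adjusted p = 0.0396 and 0.0157) and the second only without normal mucosa 6 (0.0179). Cyclic loess, a fixed replicate block and the fits of 2 groups ended both calls (0.07 to 0.31).

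Both acyl-CoA synthetases that were measured rose in diseased tissue. Acsl4, which prefers arachidonic acid, read 9.08, 9.44, 9.09, 9.37 and 9.62 in adenocarcinoma and 8.95, 8.81, 8.74 and 9.0 in inflamed mucosa, against 7.92, 7.08, 7.75 and 7.81 in normal mucosa. The 3 groups did not overlap. Acsl4 was 3.21-fold higher in adenocarcinoma than in normal mucosa (1.68 on the log2 scale, SE 0.16, adjusted p = 4.77e-06) and 2.35-fold higher in inflamed than in normal mucosa (1.23, SE 0.17, adjusted p = 0.000177). Between adenocarcinoma and inflamed mucosa it differed by 0.45 (SE 0.16), which missed the threshold at an adjusted p of 0.13, although adenocarcinoma was higher in all 4 same-numbered pairs. Without normal mucosa 2, which had the lowest value, that difference passed at 0.0352, as it did in the 2-group fit (0.0469) and with array weights (0.0272).

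Acsl5, an intestinal synthetase linked to mitochondria and the endoplasmic reticulum, read 9.71 to 10.02 in adenocarcinoma and 9.64 to 9.87 in inflamed mucosa, against 9.13 to 9.65 in normal mucosa. It rose by 0.48 in adenocarcinoma (SE 0.10, adjusted p = 0.00296) and by 0.37 in inflamed mucosa (SE 0.11, adjusted p = 0.0248), both against normal mucosa. The second call was lost without inflamed mucosa 1, 2 or 4 or without normal mucosa 2, at adjusted p of 0.0507 to 0.0697. It was also lost in the fit of these 2 groups alone (0.0585) and with arrays centred on their medians, where the difference was 0.18 (adjusted p = 0.169).

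Within the carnitine shuttle the inner-membrane carrier moved most. Slc25a20, the carnitine-acylcarnitine translocase, read 9.42, 9.56, 9.84, 9.51 and 9.23 in adenocarcinoma and 10.18, 10.06, 10.57 and 9.60 in inflamed mucosa, against 11.69, 11.53, 10.96 and 10.63 in normal mucosa. All diseased arrays lay below all normal arrays, and adenocarcinoma and inflamed mucosa overlapped through inflamed mucosa 4. It was 3.23-fold lower in adenocarcinoma than in normal mucosa (-1.69, SE 0.22, adjusted p = 7.34e-05) and 2.15-fold lower in inflamed than in normal mucosa (-1.10, SE 0.24, adjusted p = 0.00408). In adenocarcinoma against inflamed mucosa the difference of -0.59 was not called (adjusted p = 0.149). Taken as 4 same-numbered pairs alone, with values of -0.76, -0.50, -0.72 and -0.09, the same comparison passed at -0.52 (adjusted p = 0.041).

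Cpt2, the carnitine palmitoyltransferase of the inner membrane, read 9.52 to 9.81 in adenocarcinoma and 9.51 to 10.02 in inflamed mucosa, against 9.97 to 10.18 in normal mucosa. It fell by 0.39 in adenocarcinoma (SE 0.10, adjusted p = 0.0114) and by 0.40 in inflamed mucosa (SE 0.11, adjusted p = 0.0174), and only inflamed mucosa 1 reached the normal range. Cpt1a, the outer-membrane enzyme and rate-limiting step of entry, ranged over 11.11 to 11.47 in adenocarcinoma and 11.20 to 11.77 in inflamed mucosa, against 11.52 to 11.66 in normal mucosa. Its differences of -0.26 and -0.11 from normal mucosa were not called (adjusted p = 0.0758 and 0.478), although adenocarcinoma and normal arrays did not overlap. The 95% interval of the first ran over -0.49 to -0.03, and without inflamed mucosa 3 it passed at 0.0472. Crot, the peroxisomal carnitine octanoyltransferase, differed by -0.21 and -0.15 and was not called either, although its adenocarcinoma and normal arrays did not overlap. The first difference passed with a fixed replicate block (adjusted p = 0.0396), sex as a covariate (0.0367), cyclic loess (0.0191) or centred arrays (0.00669). The second passed with centred arrays (0.00848).

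The acyl-CoA dehydrogenases catalyse the first oxidation of each round, each for its own chain length, and different ones were called in different comparisons. Acadm, the medium-chain enzyme, read 10.58, 10.45, 10.93, 10.69 and 9.91 in adenocarcinoma and 10.89, 10.96, 10.67 and 10.78 in inflamed mucosa, against 11.33, 11.37, 11.41 and 10.86 in normal mucosa. Adenocarcinoma 6 was the lowest of all arrays, and normal mucosa 6 was the only normal array within the range of diseased tissue. Acadm fell by 0.73 in adenocarcinoma against normal mucosa (SE 0.17, adjusted p = 0.00548). In inflamed mucosa the difference of -0.42 missed the threshold (adjusted p = 0.10), and it passed without adenocarcinoma 6 (0.039) or without normal mucosa 6 (0.0393), with age as a covariate (0.0249) and with arrays centred on their medians (0.0112).

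Acadl, the long-chain enzyme, was the only member called higher in adenocarcinoma against inflamed mucosa. Its levels were 10.56, 10.82, 10.22, 10.45 and 10.79 in adenocarcinoma and 10.30, 10.26, 9.70 and 9.92 in inflamed mucosa, with 10.35, 10.08, 10.16 and 10.23 in normal mucosa. The difference of 0.52 (SE 0.14, adjusted p = 0.0434) went the same way in all 4 pairs, at 0.26, 0.56, 0.52 and 0.54, but the groups overlapped, and of 13 cases with 1 array left out the call was kept in 3, without adenocarcinoma 3, inflamed mucosa 1 or normal mucosa 1 (adjusted p in the other 10 of 0.0517 to 0.133). Age as a covariate, the 2-group fit and cyclic loess also ended it (0.0544 to 0.0696). Against normal mucosa Acadl differed by 0.36 in adenocarcinoma (adjusted p = 0.0638), and passed there without adenocarcinoma 3 (0.0265) or inflamed mucosa 3 (0.0454). That difference also passed with a fixed replicate block (0.00702) or sex as a covariate (0.0396).

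Acadvl, the very-long-chain enzyme, read 8.40 to 8.67 in adenocarcinoma and 8.24 to 8.52 in inflamed mucosa, against 8.56 to 8.84 in normal mucosa. It fell by 0.32 in inflamed against normal mucosa (SE 0.10, adjusted p = 0.0247), a call that was lost without inflamed mucosa 3 or 4 or normal mucosa 1 or 2, at adjusted p of 0.053 to 0.0754. The 2-group fit and array weights also ended it (0.0517 and 0.052). In adenocarcinoma its difference of -0.21 was not called, but it passed without normal mucosa 6 (adjusted p = 0.0466), at -0.35 once arrays were centred on their medians (0.00704) and at -0.26 after cyclic loess (0.0354). Acads, for short chains, differed by 0.07 in adenocarcinoma and -0.04 in inflamed mucosa, both against normal mucosa and not called. Acadsb, which handles short branched chains, differed by -0.04 and 0.37, also not called, and was lower in adenocarcinoma than in inflamed mucosa in all 4 pairs at a difference of -0.41 (adjusted p = 0.12).

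The later steps of the spiral differed little between groups. Hadha and Hadhb, the 2 subunits whose genes share the upstream stretch shown above, differed from normal mucosa in the same direction. Hadha read 10.95, 10.95, 10.97, 10.90 and 10.68 in adenocarcinoma and 10.96 to 11.07 in inflamed mucosa, against 11.23, 10.95, 11.20 and 11.02 in normal mucosa. Its difference in adenocarcinoma against normal mucosa was -0.21 (SE 0.09, adjusted p = 0.0707), and passed without normal mucosa 2 (0.044). Hadhb read 9.61 to 9.82 in adenocarcinoma and 9.58 to 9.93 in inflamed mucosa, against 9.75 to 10.14 in normal mucosa. Hadhb fell by 0.30 in adenocarcinoma (SE 0.11, adjusted p = 0.04), and its other transcript cluster also differed by -0.30. That call was lost in 7 of 13 cases, without adenocarcinoma 1, 2, 4 or 6 or normal mucosa 1, 2 or 4, at adjusted p of 0.0542 to 0.105, and with a fixed replicate block or array weights (0.0669 and 0.0553).

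Acat1, the acetoacetyl-CoA thiolase that serves both the last step of oxidation and ketone body metabolism, was the thiolase that rose. It averaged 9.87 ± 0.07 in adenocarcinoma (SD, n = 5) and 9.89 ± 0.10 in inflamed mucosa, against 9.55 ± 0.21 in normal mucosa (SD, n = 4 each), and only normal mucosa 4, at 9.79, reached the range of diseased arrays. The rise was 0.33 in adenocarcinoma (SE 0.10, adjusted p = 0.0201) and 0.34 in inflamed mucosa (SE 0.10, adjusted p = 0.0276). Without normal mucosa 2, the lowest array, the first fell to 0.24 and missed (adjusted p = 0.0635), and the second was lost without inflamed mucosa 1, 2 or 4 or normal mucosa 1 or 2, at adjusted p of 0.0528 to 0.0763. With each array centred on its median, both missed (0.19 and 0.15 on the log2 scale), and the second also missed in the 2-group fit (0.0721).

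Of the 7 remaining enzymes of these steps, 0 were called in the 3 comparisons by limma in the fit of all 13 arrays, and at an unadjusted p below 0.05 Hadh and Eci2 passed in adenocarcinoma and Eci2 in inflamed mucosa, both against normal mucosa. Hadh, the medium- and short-chain hydroxyacyl-CoA dehydrogenase, differed by -0.28 in adenocarcinoma and -0.15 in inflamed mucosa against normal mucosa, and the first passed without adenocarcinoma 1 or normal mucosa 1 (adjusted p = 0.0318 to 0.0452). Echs1, the short-chain enoyl-CoA hydratase, differed by -0.06 and 0.12, and Hsd17b10, a mitochondrial dehydrogenase of branched-chain and fatty acyl-CoA, by 0.30 and 0.25. Acaa2, the mitochondrial 3-ketoacyl-CoA thiolase, differed by -0.07 and 0.29. The auxiliary enzymes for unsaturated chains, Eci1, Eci2 and Decr1, differed by 0.10, 0.29 and 0.04 in adenocarcinoma and by 0.25, 0.33 and -0.06 in inflamed mucosa. Eci2 passed in inflamed mucosa without inflamed mucosa 3 (0.44, adjusted p = 0.0317).

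The 2 peroxisomal bifunctional enzymes went opposite ways in adenocarcinoma. Ehhadh, which acts on straight chains, read 8.24, 8.21, 8.53, 8.21 and 7.57 in adenocarcinoma and 8.41, 8.47, 8.32 and 8.10 in inflamed mucosa, against 8.96, 8.93, 9.07 and 9.01 in normal mucosa. All 9 diseased arrays lay under the 4 normal arrays, which were close to each other (SD 0.06). Ehhadh fell by 0.84 in adenocarcinoma (SE 0.15, adjusted p = 0.000762) and by 0.67 in inflamed mucosa (SE 0.16, adjusted p = 0.00773). Hsd17b4, which handles branched and very long chains, read 8.89 to 9.09 in adenocarcinoma and 8.30 to 8.84 in inflamed mucosa, against 8.52 to 8.77 in normal mucosa. It rose by 0.31 in adenocarcinoma against normal mucosa (SE 0.11, adjusted p = 0.0414), with no overlap, but the call was lost without adenocarcinoma 1, 2, 3 or 4, without inflamed mucosa 4 or without normal mucosa 1, 2 or 6, at adjusted p of 0.0509 to 0.0982. Scaled by the array medians or by cyclic loess, or with sex as a covariate, it also missed. The difference between the 2 enzymes' changes was not tested.

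The electron transfer flavoprotein passes electrons of the dehydrogenases on to ubiquinone. Its α subunit Etfa read 9.66, 9.76, 9.82, 9.75 and 9.48 in adenocarcinoma and 10.04, 10.06, 9.58 and 9.79 in inflamed mucosa, against 10.54, 9.83, 10.19 and 9.84 in normal mucosa. It fell by 0.40 in adenocarcinoma against normal mucosa (SE 0.15, adjusted p = 0.0471), and when 1 array was left out it was called only without inflamed mucosa 3, normal mucosa 2 or normal mucosa 6 (adjusted p in the other 10 cases of 0.051 to 0.143). With same-numbered adenocarcinoma and inflamed arrays as a random block it missed at 0.0526, and with a fixed block, sex, cyclic loess or the 2-group fit at 0.055 to 0.0606. The β subunit Etfb differed by -0.06 in adenocarcinoma and -0.21 in inflamed mucosa and was not called. Etfdh, the oxidoreductase that completes the chain, differed by -0.32 (adjusted p = 0.0558) and -0.35 (adjusted p = 0.0593), and both passed without normal mucosa 6, at adjusted p = 0.00798 and 0.00939. The second also passed without inflamed mucosa 1 (0.0409) or with age as a covariate (0.0254). With all arrays kept, both passed with a fixed replicate block (0.0428 and 0.031), cyclic loess (0.0411 and 0.0441) or arrays centred on their medians (0.00814 and 0.00461).

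Bdh1, the β-hydroxybutyrate dehydrogenase of mitochondria, was the only measured member devoted to ketone bodies. It read 9.21 to 9.59 in adenocarcinoma and 9.47 to 9.80 in inflamed mucosa, against 9.25 to 9.99 in normal mucosa. The groups overlapped throughout, and its differences of -0.09 and 0.10 from normal mucosa and -0.20 between adenocarcinoma and inflamed mucosa were not called (adjusted p = 0.595, 0.59 and 0.504).

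**Figure D2:**
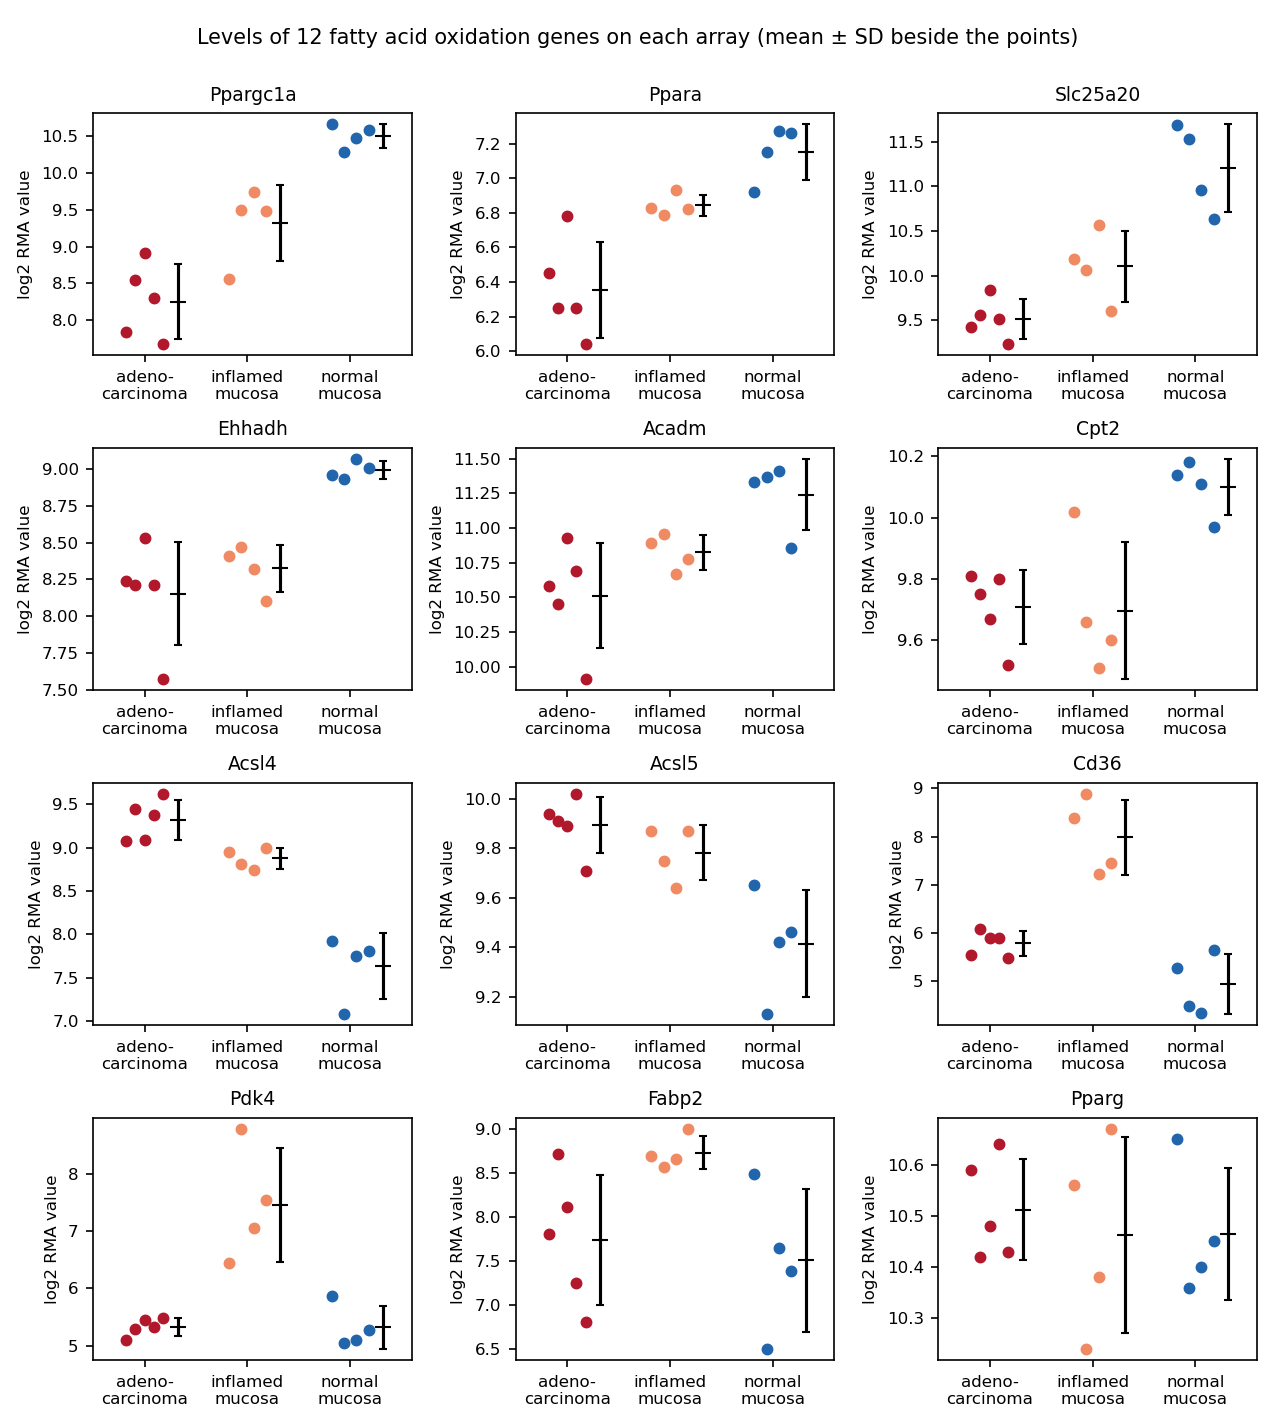
Log2 level on each array (points, vertical axis) for the members named in the panel titles, with adenocarcinoma on the left, inflamed mucosa in the middle and normal mucosa on the right, and the mean ± SD beside the points. Ppargc1a and Slc25a20 are lower on all diseased arrays than on the normal arrays, Acsl4 is higher on all of them, and Cd36 and Pdk4 are high in inflamed mucosa alone.

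Among the regulators, Ppargc1a had the lowest difference of the 34 members. It read 7.84, 8.54, 8.91, 8.30 and 7.67 in adenocarcinoma and 8.56, 9.5, 9.74 and 9.48 in inflamed mucosa, against 10.66, 10.28, 10.47 and 10.59 in normal mucosa. All diseased arrays lay below all normal arrays, and adenocarcinoma overlapped inflamed mucosa through inflamed mucosa 1. Ppargc1a was 4.75-fold lower in adenocarcinoma than in normal mucosa (-2.25, SE 0.26, adjusted p = 2.18e-05), 2.26-fold lower in inflamed than in normal mucosa (-1.18, SE 0.27, adjusted p = 0.00649) and 2.10-fold lower in adenocarcinoma than in inflamed mucosa (-1.07, SE 0.26, adjusted p = 0.0225). The last difference went one way in all 4 pairs (-0.72, -0.96, -0.83 and -1.18). It missed the threshold without adenocarcinoma 1 or 6 or without inflamed mucosa 2, 3 or 4, at adjusted p of 0.0538 to 0.0765, and with the mean of its clusters (-0.99, adjusted p = 0.0694). A second transcript cluster of Ppargc1a differed by -2.09, -1.18 and -0.91 in these comparisons.

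Ppara, the nuclear receptor that responds to fatty acids, read 6.45, 6.25, 6.78, 6.25 and 6.04 in adenocarcinoma and 6.83, 6.79, 6.93 and 6.82 in inflamed mucosa, against 6.92, 7.15, 7.27 and 7.26 in normal mucosa. Adenocarcinoma lay below both other groups with no overlap, while inflamed and normal mucosa met at inflamed mucosa 3 and normal mucosa 1. It fell by 0.79 in adenocarcinoma against normal mucosa (SE 0.13, adjusted p = 0.000361) and by 0.49 against inflamed mucosa (SE 0.13, adjusted p = 0.0345). The second call was lost with same-numbered arrays as a fixed block (adjusted p = 0.0607) and without adenocarcinoma 1, 2, 4 or 6 or any of the 4 inflamed arrays (0.0502 to 0.0928), as well as with age as a covariate or arrays centred on their medians (0.0626 each). In inflamed against normal mucosa the difference of -0.30 was not called (adjusted p = 0.107), but it passed without adenocarcinoma 3 (0.0489) and, at -0.49, with arrays centred on their medians (0.00985). Pparg, the receptor that is abundant in colonic epithelium, read 10.42 to 10.64 in adenocarcinoma and 10.24 to 10.67 in inflamed mucosa, against 10.36 to 10.65 in normal mucosa. Its difference of 0.04 in adenocarcinoma against normal mucosa had a 95% interval of -0.17 to 0.26.

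In adenocarcinoma, where Ppargc1a, Slc25a20, Ehhadh, Ppara and Acadm fell, markers of the mature absorptive colonocyte were also low. The mean of 8 such markers was 9.33 ± 0.44 in adenocarcinoma, with adenocarcinoma 6 lowest at 8.67, and 11.17 ± 0.08 in inflamed mucosa, against 12.21 ± 0.12 in normal mucosa (SD, n = 5, 4 and 4). Against normal mucosa 8 of 8 fell in adenocarcinoma and 5 of 8 in inflamed mucosa. Of the 8 epithelial markers 1 rose and 2 fell in adenocarcinoma and 4 fell in inflamed mucosa. The 6 fibroblast markers averaged 9.85 in adenocarcinoma and 9.95 in inflamed mucosa, against 6.99 in normal mucosa, and all 6 rose in both. The part of these cell types in the members' differences was not tested.

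Pdk4, the pyruvate dehydrogenase kinase that fatty acids and fasting induce, was raised in inflamed mucosa alone. It read 5.09, 5.29, 5.45, 5.32 and 5.49 in adenocarcinoma and 6.44, 8.80, 7.06 and 7.55 in inflamed mucosa, against 5.87, 5.04, 5.09 and 5.28 in normal mucosa. All 5 adenocarcinomas and 3 of 4 normal arrays were under the level of absent transcripts, and all inflamed arrays were above it. The difference was 2.14 in inflamed against normal mucosa (SE 0.36, adjusted p = 0.000854) and -2.14 in adenocarcinoma against inflamed mucosa (SE 0.35, adjusted p = 0.00221). With arrays under 5.57 set to it, inflamed mucosa was at least 3.53-fold above normal mucosa and at least 3.71-fold above adenocarcinoma. Inflamed mucosa 2 had the highest level of both Pdk4 and Cd36 in its group. Its means of smooth muscle (11.64), macrophage (8.94) and endothelial markers (8.62) were also the highest of that group. Inflamed mucosa 1 had the lowest means of these markers, at 10.69, 8.29 and 7.98, and the lowest level of Pdk4. However, its Cd36 level of 8.38 was above those of inflamed mucosa 3 and 4. Whether these cell types contributed was not tested.

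**Figure D3:**
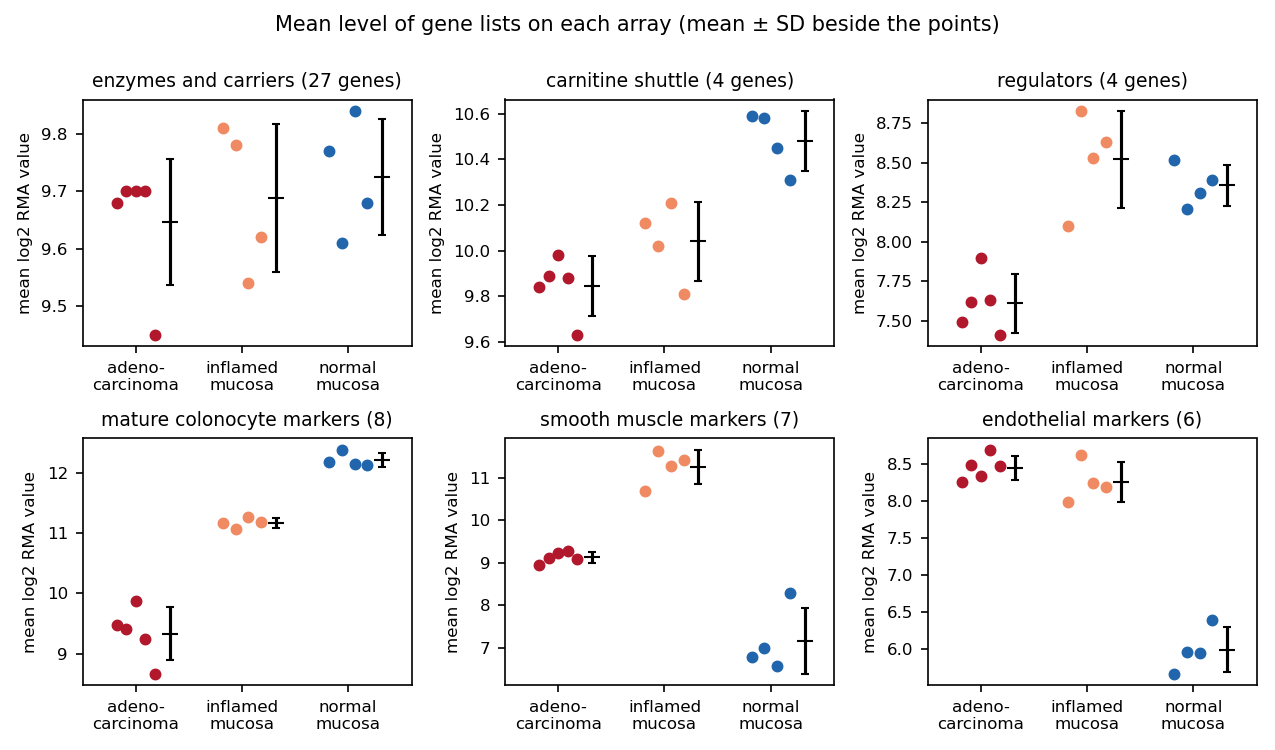
Mean log2 level per array (points) of the gene lists named in the panel titles, with mean ± SD, for adenocarcinoma, inflamed mucosa and normal mucosa. Enzymes and carriers of the pathway average 9.64, 9.69 and 9.73 in the 3 groups, mature colonocyte markers fall to 9.33 in adenocarcinoma against 12.21 in normal mucosa, and smooth muscle markers reach 11.25 in inflamed mucosa.

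Averaged over members, the groups were close to each other. Over all 34 measured members the mean was 9.06 ± 0.12 in adenocarcinoma (SD, n = 5) and 9.30 ± 0.12 in inflamed mucosa. In normal mucosa it was 9.19 ± 0.11 (SD, n = 4 each), so inflamed mucosa was highest. The mean over 27 enzymes and carriers, leaving out the uptake genes and regulators, was 9.64 ± 0.11 in adenocarcinoma (SD, n = 5) and 9.69 ± 0.13 in inflamed mucosa, against 9.73 ± 0.10 in normal mucosa (SD, n = 4 each). The 4 carnitine shuttle genes averaged 9.84 ± 0.13 in adenocarcinoma and 10.04 ± 0.17 in inflamed mucosa, against 10.48 ± 0.13 in normal mucosa. These means give no test of the lists. Adenocarcinoma 6, from the oldest mouse, was the lowest of its group for 24 of 34 members, while it was lowest for 23.8% of all genes. Inflamed mucosa 3 was lowest of its group for 18 of 34 members (25.5% of all genes) and normal mucosa 2 for 16 of 34 (16.9% of all genes).

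For members that were not called, the 95% intervals bound what the arrays could show. In adenocarcinoma against normal mucosa 19 of the 21 uncalled members had intervals within 1 log2 unit of 0 and 13 within 0.5, and the bounds ran over -0.74 (Pdk4) to 1.55 (Cd36). In inflamed against normal mucosa all 22 lay within 1 and 13 within 0.5. In adenocarcinoma against inflamed mucosa 27 of 29 lay within 1 and 20 within 0.5, with the widest bound at -1.80 for Fabp2. A miss of the threshold does not show that the groups were alike.

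Fatty acid and ketone metabolism outside the 36 genes was read from 49 further genes, of which 43 were measured. In adenocarcinoma against normal mucosa 26 of 43 were called (60.5%, beside 35.8% of all genes), 8 higher and 18 lower. In inflamed against normal mucosa 19 were called (44.2%, beside 26.7%), 6 higher and 13 lower. In adenocarcinoma against inflamed mucosa 4 were called, all lower: Mgll, Pdk2, Fabp4 and Ppargc1b (9.30%, beside 7.12%). These genes were listed with earlier results of the same arrays known.

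Among the 8 of these genes with the smallest adjusted p in adenocarcinoma against normal mucosa, 6 fell. Pdk2, another pyruvate dehydrogenase kinase, read 8.62, 8.81, 9.44, 8.96 and 8.41 in adenocarcinoma and 9.52, 10.06, 10.22 and 9.84 in inflamed mucosa, against 10.72, 11.31, 10.82 and 10.78 in normal mucosa, with no overlap between any of the groups. It was 4.16-fold lower in adenocarcinoma than in normal mucosa (-2.06, SE 0.20, adjusted p = 4.8e-06) and 1.99-fold lower in inflamed than in normal mucosa (-1.0, SE 0.21, adjusted p = 0.00381). Oxct1, which activates ketone bodies for use as fuel, read 8.99 to 9.43 in adenocarcinoma and 9.28 to 9.47 in inflamed mucosa, against 9.68 to 10.47 in normal mucosa, and fell by 0.87 and 0.69 (adjusted p = 0.000258 and 0.00327). Pnpla2, the triglyceride lipase ATGL, fell by 0.75 and 0.46 (adjusted p = 4.88e-05 and 0.00471). Hnf4a, a nuclear receptor of enterocytes, fell by 0.73 in adenocarcinoma, the peroxisome proliferation gene Pex11a by 0.82 and the carnitine acetyltransferase Crat by 0.59. Angptl4, a secreted inhibitor of lipoprotein lipase and a known PPAR target, rose by 0.84 in adenocarcinoma and by 0.55 in inflamed mucosa (adjusted p = 0.000273 and 0.00987).

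Genes that rose most in inflamed mucosa were Fabp4 and Mgll. Fabp4, the fatty acid binding protein known from adipocytes, macrophages and capillary endothelium, read 7.05, 7.59, 7.77, 7.26 and 7.29 in adenocarcinoma and 8.51, 8.51, 8.28 and 7.98 in inflamed mucosa, against 5.51, 5.89, 5.87 and 6.51 in normal mucosa. The 3 groups did not overlap, in the same order as Cd36, and endothelial and macrophage markers rose with it as given above, with their part not tested. It rose by 2.37 in inflamed mucosa (SE 0.20, adjusted p = 3.5e-06) and 1.45 in adenocarcinoma (SE 0.19, adjusted p = 8.06e-05), and fell by 0.93 in adenocarcinoma against inflamed mucosa (adjusted p = 0.0101). Mgll, the monoglyceride lipase, rose by 1.54 in inflamed mucosa (adjusted p = 1.02e-05). Plin2, a lipid droplet coat protein, the kinase Pdk1 and the peroxisomal thiolase Acaa1a fell there by 0.74, 0.77 and 0.58. Ppargc1b, a coactivator related to Ppargc1a, fell by 0.69 in adenocarcinoma against inflamed mucosa (adjusted p = 0.0427), and when 1 array was left out this call was kept in 4 of 13 cases, without adenocarcinoma 2 or 3, inflamed mucosa 1 or normal mucosa 1 (adjusted p in the other 9 of 0.0514 to 0.133).

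The butyrate carriers Slc16a1 and Slc5a8 were picked out after their values were seen. Slc16a1, a monocarboxylate transporter, fell by 0.73 in adenocarcinoma and by 0.47 in inflamed mucosa against normal mucosa (adjusted p = 0.0024 and 0.0444). The call in inflamed mucosa was lost in 10 of 13 fits that left out 1 array (adjusted p up to 0.117), with arrays of all 3 groups among them, and with age as a covariate or cyclic loess. Slc5a8, the sodium-coupled carrier of the apical membrane, read 11.72, 11.48, 11.84, 11.00 and 10.20 in adenocarcinoma and 11.90 to 12.32 in inflamed mucosa, against 11.92 to 12.38 in normal mucosa. It fell by 0.90 in adenocarcinoma (SE 0.26, adjusted p = 0.0181) and differed by -0.07 in inflamed mucosa (adjusted p = 0.869).

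**Figure D4:**
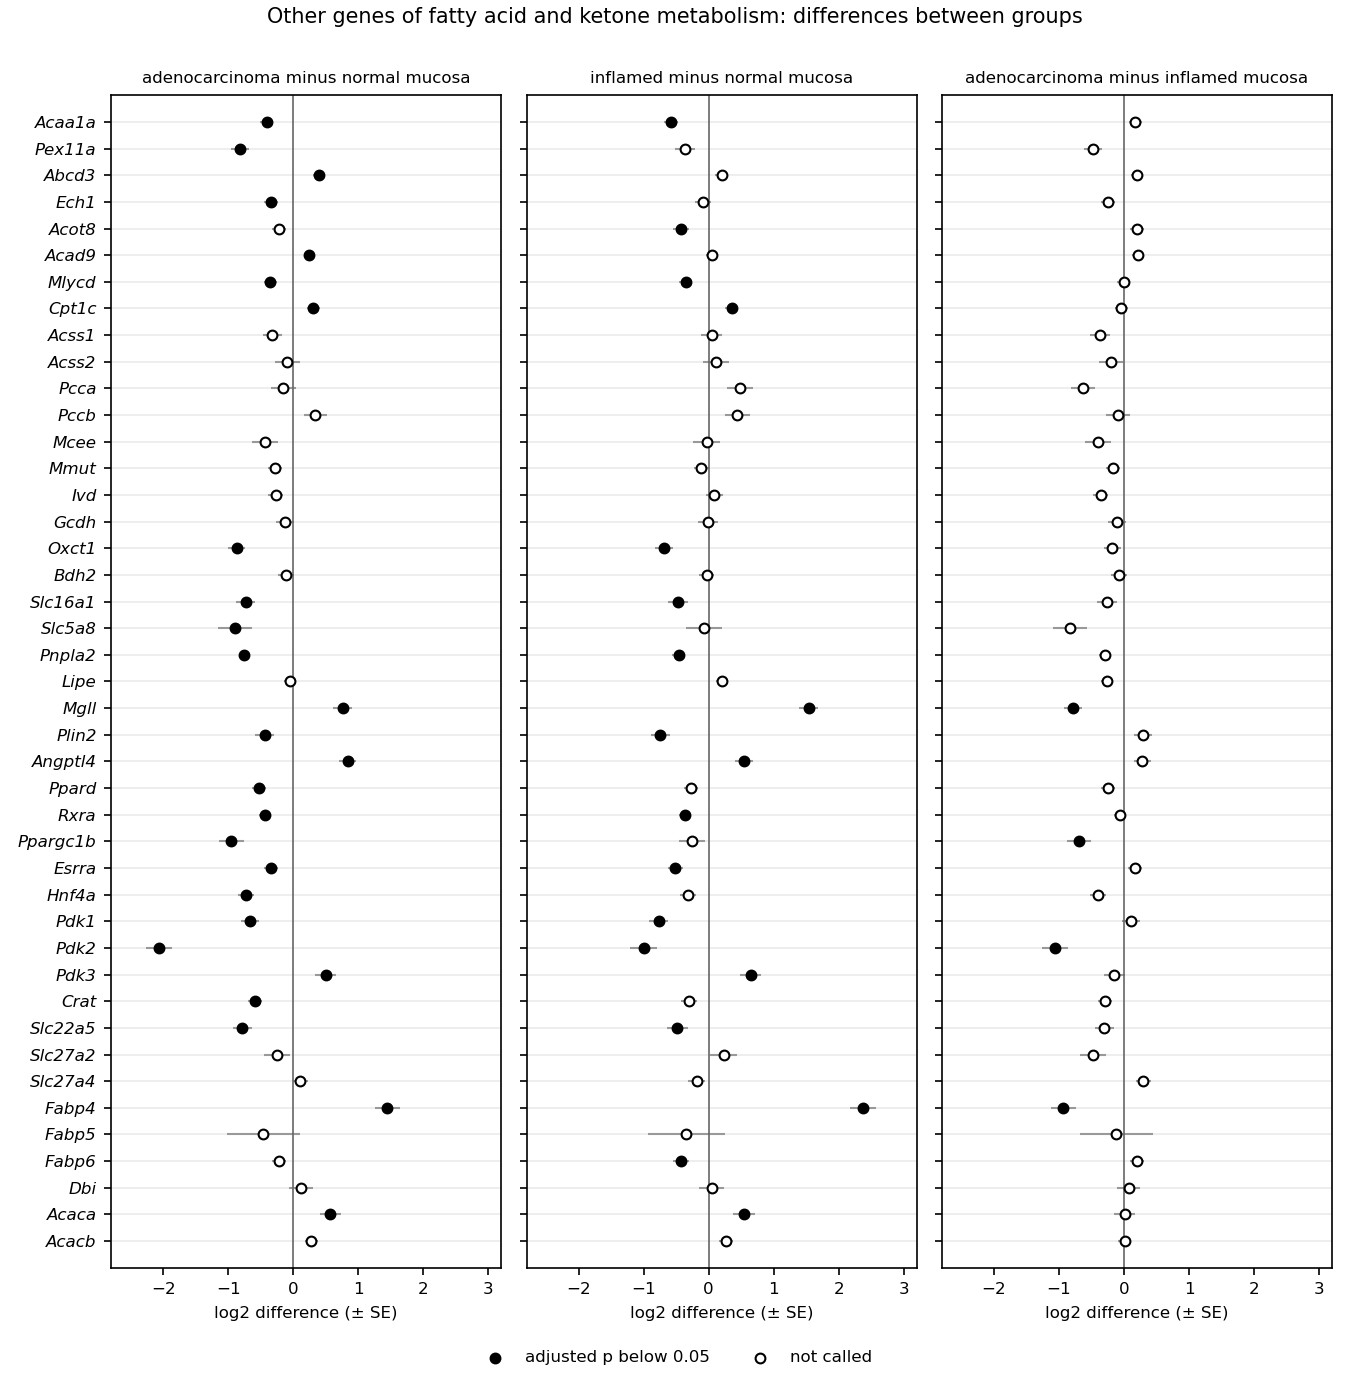
Log2 differences (horizontal axis, ± SE) of 43 further genes of fatty acid and ketone metabolism in the same 3 comparisons, with filled points for genes called at an adjusted p below 0.05. Pdk2 stands lowest in adenocarcinoma minus normal mucosa at -2.06, and Fabp4 highest in inflamed minus normal mucosa at 2.37.

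Counts in each direction depended on how the arrays were scaled. With each array centred on its median, the median of all genes moved to -0.24 in adenocarcinoma and -0.28 in inflamed mucosa against normal mucosa, and 2 members were called higher and 15 lower in adenocarcinoma, 4 higher and 16 lower in inflamed mucosa. The calls gained were Acadvl, Cpt1a, Crot, Etfdh, Hadh and Hadha in adenocarcinoma and Acadm, Cpt1a, Crot, Etfa, Etfb, Etfdh, Hadh, Hadha, Hadhb and Ppara in inflamed mucosa, all lower. Over all genes the calls were then 2491 higher and 8612 lower in adenocarcinoma, beside 3266 and 3867 on the deposited scale, and 1875 higher and 9510 lower in inflamed mucosa, beside 2730 and 2592. Cyclic loess gave 3 members higher and 10 lower in adenocarcinoma and 5 higher and 6 lower in inflamed mucosa. Over all genes it gave 3400 higher and 2911 lower in adenocarcinoma and 2939 higher and 2053 lower in inflamed mucosa. The members' median stayed near that of all genes: centred, it was -0.20 beside -0.24 in adenocarcinoma and -0.27 beside -0.28 in inflamed mucosa, and with cyclic loess -0.06 beside -0.01 and -0.04 beside -0.02. Calls that held in every other setting and with each array left out, a 2-fold minimum set aside, were Ppargc1a, Slc25a20, Ehhadh, Ppara, Acadm, Cpt2, Acsl4 and Acsl5 in adenocarcinoma against normal mucosa (8 of 13). In inflamed against normal mucosa they were Cd36, Pdk4, Acsl4, Slc25a20, Ppargc1a, Ehhadh and Cpt2 (7 of 12), and in adenocarcinoma against inflamed mucosa Cd36 and Pdk4 (2 of 5).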

How the data were processed

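Total RNA of 13 rectal samples was measured on Affymetrix Mouse Gene 1.0 ST arrays. For each transcript cluster the authors deposited a log2 level, made by RMA in Affymetrix Expression Console version 1.1 per the labels. Scans had gone through GeneChip Command Console version 2.0 (design text). What Partek, named in the submitters' processing notes, was used for is not said. RMA fits arrays to a common distribution, so a difference in total RNA between groups is lost, and differences of dim genes are compressed. No source used here gives the array's genome build, and no background measure per probe was used, so precision rests on the number of arrays.

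Of 35556 clusters, 21789 name 1 gene in the platform annotation, 1621 name several and 12146 are not listed there. Symbols were updated through Entrez identifiers (21698 matched RefSeq, GRCm38.p6), and each of 19938 genes was read from its cluster of highest mean, 999 of which have several clusters. Acsl1 is not listed, and the cluster of Acsl3 also names another gene. Some of the further genes, and of the markers Fcgbp and Cfd, were not analysed here. All columns were used.

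The test was limma's moderated one (version 3.58.1 under R 4.3.3), with lmFit and eBayes over the 3 groups at once, without a block, and Benjamini-Hochberg adjustment over all genes. Tables and figures were made in Python 3.11.15. Fold changes are 2 to the power of the log2 difference. The script was tested on simulated data with known changes. Groups come from titles and tissue labels. Adenocarcinoma and inflamed arrays of the same number, which share sex and age in the labels, departed from their group means together (correlations 0.319, 0.198, 0.199 and 0.387) and were taken as pairs. Adenocarcinoma and inflamed arrays of different numbers correlated at -0.318 to 0.185. However, adenocarcinoma 1 and normal mucosa 2, of different numbers, reached 0.283, so such values alone do not establish that pairs came from 1 mouse. Normal arrays correlated with same-numbered others at -0.126 to 0.041 and were not. Alternatives were blocks by number, sex or age as covariates, fits of 2 groups, a filter on dim genes, other scalings, all clusters of a gene, a 2-fold minimum, other variance models, array weights and leaving out each array. All members are named. Of the further genes, those with the 8 smallest adjusted p among called genes of a comparison are named, with exceptions stated. Members, further genes and marker lists were chosen with earlier results of these data known, and no list was tested.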

Additional observations from a re-analysis of the deposited data

Results flagged for a closer look

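In 6 of 102 sets of arrays (each of 34 members in each of 3 groups), 1 array stood farther from the rest of its group than Dixon's 95% critical value allows, and chance gives about 1 in 20, or 5.1. Hadha was 10.68 in adenocarcinoma 6, against 10.90 to 10.97 in the other adenocarcinomas. Etfdh was 9.31 in inflamed mucosa 1, against 9.0 to 9.05 in the other inflamed samples. In normal mucosa, Crot was 9.19 in sample 4 (others 8.97 to 8.99), Acads was 10.07 in sample 4 (others 9.85 to 9.87), Acadm was 10.86 in sample 6 (others 11.33 to 11.41) and Hadh was 11.68 in sample 1 (others 12.03 to 12.05).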

How the results depend on the processing

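With the replicate number as a fixed block over all arrays, adenocarcinoma against normal mucosa lost Etfa, Fabp1 and Hadhb and gained Acadl, Cpt1a, Crot and Etfdh, inflamed against normal mucosa lost Fabp1 and Fabp2 and gained Acadm and Etfdh, and adenocarcinoma against inflamed mucosa lost Ppara. That block also joins the normal arrays, which showed no pairing. In adenocarcinoma against inflamed mucosa the further genes were then 1 higher, the random block gave 938 genes higher, 1341 lower and 10 further genes lower, and the 4 pairs alone gave 1 further gene higher and 8 lower. The random block and the pairs alone changed members' calls of Etfa, Fabp2 and Slc25a20 and no other. In the same comparison members higher were 0 with age as a covariate, with cyclic loess or with a 2-fold minimum and 2 with array weights, which also gave 981 genes higher, 1315 lower and 10 further genes lower, while age gave 1 further gene higher.

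Centred on array medians, adenocarcinoma against normal mucosa had 2 members higher, 15 lower (median -0.20), 8612 genes lower and 5 further genes higher, and inflamed against normal mucosa had 16 members lower (median -0.27) and 9510 genes lower. A 2-fold minimum left 1 member higher and 2 lower, 864 genes higher and 525 lower and 1 further gene each way in adenocarcinoma against normal mucosa. It left 2 members lower, 875 genes higher and 212 lower, and 2 further genes higher and 0 lower in inflamed against normal mucosa, and 140 genes higher, 269 lower and 1 further gene lower in adenocarcinoma against inflamed mucosa. These smaller counts follow from the added minimum. The cause of the other shifts was not tested.

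With each array left out in turn, members higher were 2 to 6, lower 6 to 11 and the median -0.13 to -0.02 in adenocarcinoma against normal mucosa, with 2 higher without normal mucosa 2. They were 3 to 6 higher, 4 to 8 lower and -0.12 to -0.01 in inflamed against normal mucosa, with 3 higher without inflamed mucosa 1, 2 or 4 or normal mucosa 2. Adenocarcinoma against inflamed mucosa had 0 to 1 higher, 2 to 4 lower and a median of -0.13 to -0.03, with 2 lower without adenocarcinoma 1 or 6 or inflamed mucosa 2, 3 or 4. Genes higher were 2801 to 3286, 2133 to 2762 and 302 to 662 in these comparisons, and genes lower 2543 to 4374, 1391 to 3024 and 473 to 990. The lowest of these came without normal mucosa 2 in adenocarcinoma against normal mucosa and without inflamed mucosa 2 in the others. Further genes higher were 5 to 8, 4 to 7 and 0, and lower 16 to 19, 8 to 15 and 3 to 6, with 5 higher without adenocarcinoma 4 and 8 lower without inflamed mucosa 2.

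Signs turned only for differences near 0 that were not called. In adenocarcinoma against normal mucosa these were Echs1 at 0.014 (fixed replicate block), Pdk4 at -0.013 (sex), -0.012 (age) and -0.129 (centred), Acads at -0.07, Decr1 at -0.094, Eci1 at -0.036 and Pparg at -0.093 (centred), and Etfb at 0.001 (loess). For inflamed against normal mucosa they were Pparg at 0.018 (sex), 0.036 (loess) and 0.028 (array weights), Hsd17b4 at -0.001 (age), -0.177 (centred) and -0.013 (loess), Slc5a8 at 0.016 (loess), and Bdh1 at -0.086 and Echs1 at -0.069 (centred). For adenocarcinoma against inflamed mucosa they were Acat1 at 0.041, Crot at 0.001 and Eci2 at 0.022 (centred), and Cpt2 at -0.004, Fabp1 at -0.012 and Hsd17b10 at -0.04 (array weights).

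Leaving out 1 array turned others that were also not called, among them Fabp2, at 0.23 with all arrays in adenocarcinoma against normal mucosa. In adenocarcinoma against normal mucosa the ranges were -0.158 to 0.063 for Acaa2, -0.116 to 0.045 for Acadsb, -0.198 to 0.05 for Bdh1, -0.089 to 0.107 for Decr1, -0.153 to 0.018 for Echs1, -0.106 to 0.554 for Fabp2 and -0.087 to 0.191 for Pdk4. For inflamed against normal mucosa they were -0.136 to 0.043 for Acads, -0.002 to 0.247 for Bdh1, -0.194 to 0.12 for Decr1, -0.044 to 0.138 for Hsd17b4, -0.075 to 0.07 for Pparg and -0.145 to 0.012 for Slc5a8. For adenocarcinoma against inflamed mucosa they were -0.053 to 0.026 for Acat1, -0.051 to 0.119 for Cpt2, -0.078 to 0.197 for Decr1, -0.145 to 0.08 for Eci2, -0.009 to 0.104 for Etfdh, -0.001 to 0.058 for Fabp1, -0.102 to 0.118 for Hsd17b10 and -0.027 to 0.118 for Pparg.

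Of the members' differences under settings that keep all arrays, 1139 kept their direction and side of the threshold, 57 lost a call, 36 gained one and 23 turned sign. The number of arrays limits what small differences can show, and levels near 5.57 have no reliable fold.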
